A study of Mus musculus with 8 samples.

Results

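Core spliceosome, SR and hnRNP genes were compared between early neurons and the neural stem cells (NSCs) that gave rise to them. The genes were defined by symbol, as the Srsf, Hnrnp, Sf3a, Sf3b, Snrp (a to g), Prpf, U2af and Lsm families. In all they were 72 genes with 130 probes, of 16593 genes and 25697 probes on the array. They were chosen with earlier results of these data known. Of these 72 genes, 58 were measured well enough to be tested. The 3 neuron samples were NSC progeny that spent 4 days in N2B27, a serum-free differentiation medium, then a replating step in Neurobasal with B27, and were sorted for RedStar, a red fluorophore under control of the Tau (Mapt) promoter. The 5 NSC samples were derived from mouse embryonic stem cells, were negative for Tau-RedStar and were kept in Euromed-N with N2, FGF2 and EGF. Both groups had the strain label C57BL/6. The sort, the medium and the array position followed the group, so none of them can be told apart from cell type.

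Splicing removes introns from pre-mRNA in a particle built of small nuclear RNAs (snRNAs) and proteins. Each snRNA of the major spliceosome except U6 carries a ring of Sm proteins, while U6 carries a ring of the related LSM proteins. U2AF and the SF3A and SF3B complexes mark the 3′ end of the intron and its branch point, and PRP factors act at several steps. SR proteins mostly favour the use of nearby exons, and hnRNP proteins often oppose it, so that the balance between them sets which exons are kept. Neural tissue is known for abundant alternative splicing.

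Promoter windows are shown for 4 members, from 250 bases before to 50 after the RefSeq start site (GRCm38.p6). They are examples of members that fell (Lsm5 and Snrpg) and rose (Srsf5 and Srsf10) with a motif match and a single listed start. Srsf10 rose on its brightest probe and was at -0.10 with the mean of its tested probes. Capitals mark CCGGAAG, the core of ETS factor sites, or TTTCCCGC, an E2F site, on either strand. The Lsm5 window lies at chr6:56704650-56704949 on the minus strand, Snrpg at chr6:86371290-86371589 on the plus strand, Srsf5 at chr12:80945249-80945548 on the plus strand and Srsf10 at chr4:135855821-135856120 on the plus strand.
Lsm5: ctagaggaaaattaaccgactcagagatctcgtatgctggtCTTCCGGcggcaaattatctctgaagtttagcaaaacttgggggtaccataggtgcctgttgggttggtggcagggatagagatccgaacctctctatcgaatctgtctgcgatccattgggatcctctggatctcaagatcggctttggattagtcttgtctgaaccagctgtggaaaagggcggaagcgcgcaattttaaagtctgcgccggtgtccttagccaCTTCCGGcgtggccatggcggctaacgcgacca
Snrpg: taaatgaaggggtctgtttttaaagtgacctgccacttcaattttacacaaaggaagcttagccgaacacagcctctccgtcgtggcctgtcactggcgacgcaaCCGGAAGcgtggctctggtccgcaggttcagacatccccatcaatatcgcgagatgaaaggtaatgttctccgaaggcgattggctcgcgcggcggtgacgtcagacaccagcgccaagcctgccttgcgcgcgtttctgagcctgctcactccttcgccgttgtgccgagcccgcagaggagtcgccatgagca
Srsf5: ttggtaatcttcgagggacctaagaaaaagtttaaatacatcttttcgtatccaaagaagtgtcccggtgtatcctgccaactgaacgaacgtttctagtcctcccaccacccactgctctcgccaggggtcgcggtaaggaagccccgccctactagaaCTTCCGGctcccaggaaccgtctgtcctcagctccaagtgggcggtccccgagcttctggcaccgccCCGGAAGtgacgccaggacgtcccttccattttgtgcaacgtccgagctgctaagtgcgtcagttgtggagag
Srsf10: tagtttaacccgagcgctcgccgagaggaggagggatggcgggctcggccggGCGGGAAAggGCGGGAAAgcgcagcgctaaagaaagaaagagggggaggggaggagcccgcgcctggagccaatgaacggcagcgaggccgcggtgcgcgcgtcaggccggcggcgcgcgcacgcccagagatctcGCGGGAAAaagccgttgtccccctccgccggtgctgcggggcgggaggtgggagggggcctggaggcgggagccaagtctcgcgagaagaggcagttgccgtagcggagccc

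A promoter was matched by gene identifier for 62 of the 72 members, with 1 start site in 50 of them. Of these 62 members 49 were tested, so the shares of tested genes given below are of an unlike set. Any start site of a gene was counted, on both strands. The ETS core CCGGAAG stood in 19 of the 62 (30.6%), against 21.7% of 6098 tested genes with a promoter and 9.93% of all 27025 genes in the table. Among members it was found in 1 of 10 that were higher in neurons, in 5 of 16 that were lower and in 8 of 23 that were not called. TTTCCCGC stood in 4 members (6.45%, against 2.43% of tested genes), and the YY1 motif AAGATGGC in 4 members (6.45%, against 6.02%). By call, TTTCCCGC was found in 1 of 10 higher, 0 of 16 lower and 2 of 23 not called members. The palindromic NRF1 motif stood in 0 members (2.48% of tested genes), CCAAT in 31 (50%, against 44.6%) and the TATA box TATAAA in 6 (9.68%, against 8.35%). Matches of different motifs overlapped in 0 members. A match is a description of these letters and marks no site of binding.

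Between 36.5% and 39.7% of probes were detected on an array, and median signals lay between 80.3 and 84.7. Log2 signals correlated at 0.993 to 0.994 between neuron arrays, 0.993 to 0.994 between NSC arrays and 0.937 to 0.938 between the groups, across probes, which are not independent replicates. Of 10 neuronal markers 7 were tested and all 7 were higher in neurons, with a summed level on the linear scale of 2509 to 2661 in neurons and 281 to 360 in NSCs, while Tubb3, Snap25 and Elavl3 were above background on no array. All 7 tested mitosis markers of 9 with a probe were lower (303 to 323 in neurons, 18212 to 19636 in NSCs), as were 7 of 9 NSC and radial glia markers (6514 to 7087 in neurons, 19056 to 20531 in NSCs). Of that list Sox2 was higher in neurons (0.37, limma adjusted p = 0.0253) and Nes was not called (-0.16). Of 9 oligodendrocyte lineage markers with a probe 5 were higher and 1 lower (16101 to 17235 in neurons, 10148 to 13299 in NSCs), with Mbp, Mog and Mag above background on no array. Gpr17 and Fa2h were detected on 3 neuron arrays and 0 NSC arrays, at least 3.04 and 2.27 higher on the log2 scale. Cnp (1.26), Olig2 (0.85) and Olig1 (0.51) were higher too, and Opalin was lower (-0.77). Olig1 was the brightest of the list, at a mean of 13.82 in neurons and 13.30 in NSCs, and weighs most in the sum. Of 8 astrocyte markers 4 were lower (894 to 982 in neurons, 4898 to 5634 in NSCs), with Gfap and Aqp4 above background on no array. These lists moved with every difference given below, and their part in it was not tested.

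Core splicing genes were called in both directions between neurons and NSCs, mostly at under 2-fold. By limma, 13 of the 58 tested members were higher in neurons and 20 were lower at an adjusted p below 0.05, so 56.9% of members were called, where 64.6% of all 7407 tested genes were. Members called higher made up 22.4%, against 35.4% of all genes, and members called lower 34.5%, against 29.2%. The median log2 difference (neuron minus NSC) was -0.016 over members and 0.062 over all genes. In bulk RNA, fewer cells of a type and less RNA per cell cannot be told apart. A fitted difference of at least 2-fold was reached by 5 called members, Hnrnph3 and Hnrnph1 upward and Lsm2, Hnrnpa2b1 and Lsm4 downward, which is 8.62% of those tested, against 22.4% of all tested genes. At their weakest over the alternative settings, Hnrnph3 (0.63), Hnrnph1 (0.94), Hnrnpa2b1 (-0.80) and Lsm4 (-0.94) were under 2-fold, and Lsm2 was not (-1.32). The interquartile range ran from -0.45 to 0.24 for members and from -0.42 to 0.54 for all genes. Neuron and NSC arrays did not overlap for 32 members (55.2%), against 61.1% of all genes. Of the 58 tested members, all but U2af1l4, Hnrnph3 and Prpf31 were detected on all 8 arrays, and none was detected in 1 group alone. With median scaling, which moved the median of all genes to 0.23, the split of member calls was 19 higher and 15 lower (55.9% of calls higher), and the member median was 0.078. Of all genes called in that setting 66.1% were higher. With quantile normalization 39.4% of member calls and 54.8% of all calls were higher.

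**Figure D1:**
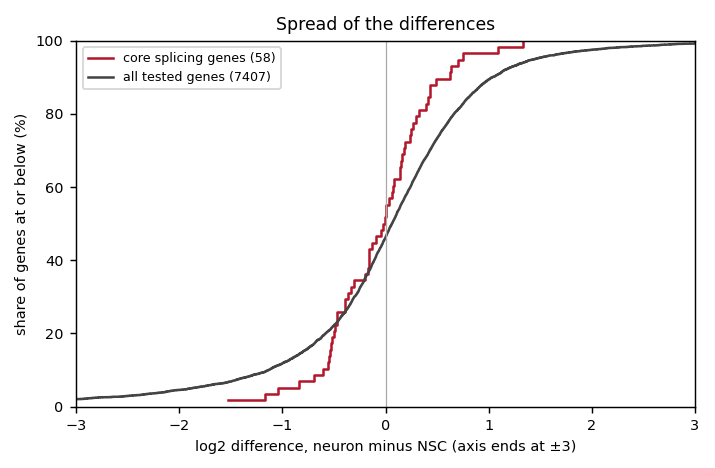
Share of genes (y axis, percent) at or below each log2 difference, neuron minus NSC (x axis), for the 58 core splicing genes and all 7407 tested genes. The member curve is steeper, with an interquartile range of -0.45 to 0.24 against -0.42 to 0.54.

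**Figure D2:**
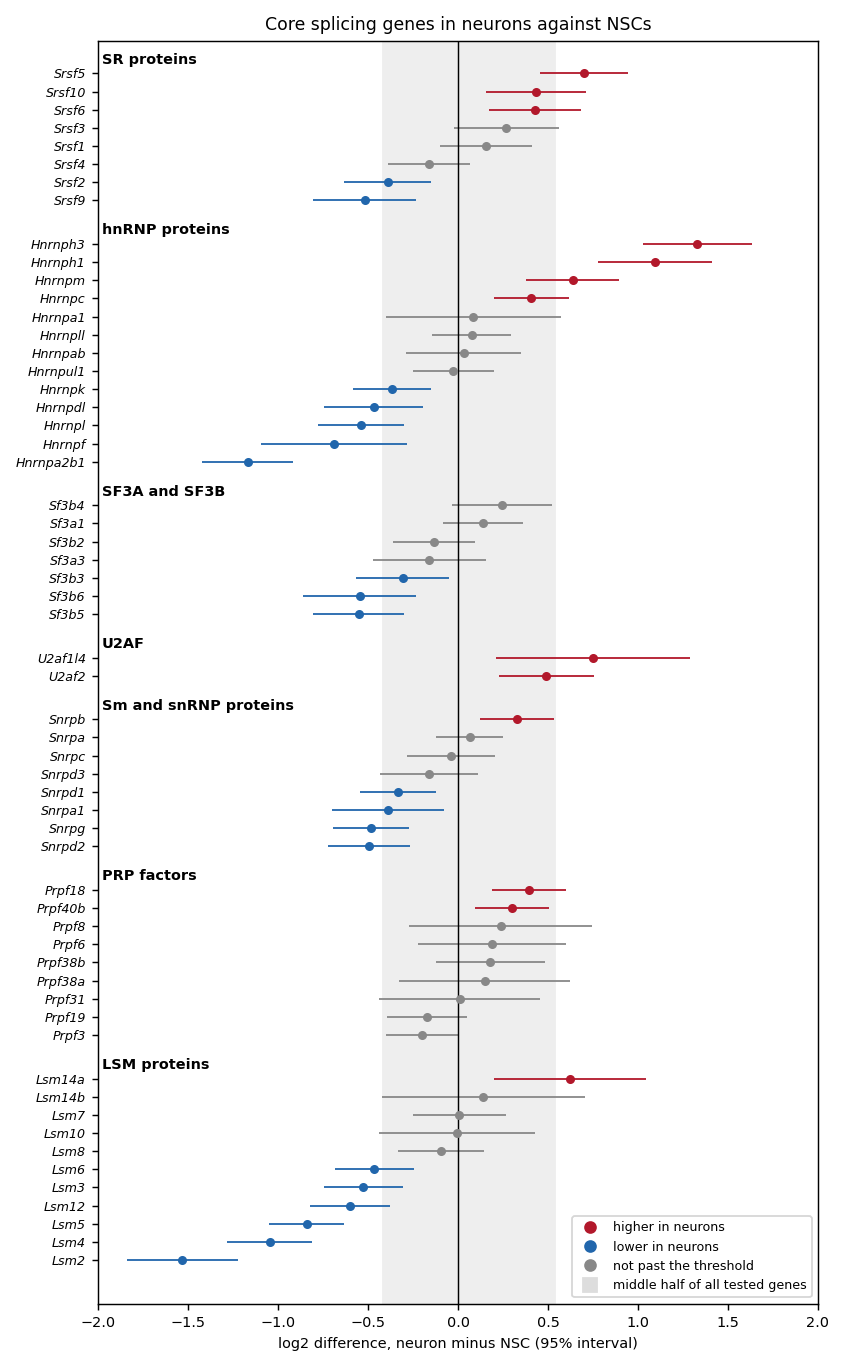
Log2 difference, neuron minus NSC (x axis), of each tested core splicing gene (y axis, by role group), with its 95% interval from limma. Points are coloured by call, and the grey band is the interquartile range of all tested genes. Lsm2 at -1.53 and Hnrnph3 at 1.33 are the extremes.

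Of the 14 members that were not tested, 12 were above background on no array. These were Hnrnpa3, Hnrnpd, Hnrnph2, Hnrnpr and Hnrnpu among the hnRNP genes, Sf3a2 and Sf3b1, Snrpb2 and Snrpe, Prpf4b, Srsf12 and Lsm1. Prpf39 was detected on 2 neuron arrays and 0 NSC arrays, and Lsm11, a protein of the U7 snRNP, on 1 array of each group.

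SR protein genes split. Of 8 tested, Srsf5, Srsf10 and Srsf6 were higher in neurons, Srsf2 and Srsf9 were lower, and Srsf1, Srsf3 and Srsf4 did not pass, with a median of 0.21. The share called was 62.5%, against 64.6% of all tested genes. Srsf5, an activator of exon inclusion, read 12.10, 11.73 and 11.95 on the log2 scale in neurons 1 to 3, against 11.13, 11.31, 11.25, 11.11 and 11.34 in NSCs 1 to 5. Every neuron array stood above every NSC array, and the difference of 0.70 (SE 0.11, limma adjusted p = 0.000211) is 1.63-fold. Srsf6 read 10.34, 10.39 and 10.45 in neurons, against 9.69, 9.91, 10.17, 10.04 and 10.04 in NSCs, a difference of 0.43 (adjusted p = 0.00750). On its brightest probe Srsf10, an SR protein that represses splicing when it is dephosphorylated, read 9.16, 9.05 and 8.94 in neurons, against 8.79, 8.30, 8.77, 8.69 and 8.57 in NSCs. Its difference of 0.43 (SE 0.13, adjusted p = 0.0115) was not called without Neuron 1 (0.37, adjusted p = 0.0509), and averaged over its 3 tested probes it was -0.10 (adjusted p = 0.355). In the other direction, Srsf9 read 10.56, 10.87 and 10.40 in neurons, against 10.96, 11.01, 11.12, 11.31 and 11.26 in NSCs, with no overlap and a difference of -0.52 (SE 0.13, adjusted p = 0.00489). Srsf2, a protein of nuclear speckles also known as SC35, read 11.70, 11.42 and 11.49 in neurons, against 11.97, 11.71, 12.07, 11.95 and 11.94 in NSCs. The highest neuron array lay just under the lowest NSC array, and the difference was -0.39 (SE 0.11, adjusted p = 0.00900), or -0.24 with the mean of its probes (adjusted p = 0.0422). Its other tested probes were at -0.39 and 0.046, and neither was called. Srsf1, the founding SR protein, was at 0.16 (95% interval -0.10 to 0.41), Srsf3 at 0.27 (-0.03 to 0.56) and Srsf4 at -0.16 (-0.39 to 0.07). Srsf3 was called higher with the mean of its probes (0.38, adjusted p = 0.00886) and with median scaling (0.52, adjusted p = 0.00520). The dimmer tested probe of Srsf3 was at 0.49 and called higher.

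Among the role groups, hnRNP genes held the widest range of differences, from -1.17 to 1.33. Of 13 tested, 4 were higher, 5 were lower and 4 did not pass, with a median of 0.030. That is 69.2% called, against 64.6% of all tested genes. The F/H family, whose proteins bind runs of G, moved apart. Hnrnph1 read 11.72, 11.26 and 11.30 in neurons, against 10.04, 10.48, 10.26, 10.53 and 10.36 in NSCs. The groups lay clearly apart, by 1.09 on the log2 scale (SE 0.14, limma adjusted p = 5.26e-05), or 2.14-fold. All 5 of its probes were called higher. For 4 of them the difference was 0.79 to 1.14, and the other, not above background on any NSC array, was at least 1.31-fold higher (adjusted p = 0.000929). Hnrnph3 read 6.18, 6.52 and 6.28 in neurons, against 4.82, 4.79, 5.24, 4.93 and 5.22 in NSCs, where only 2 of the 5 arrays were above background. Its difference of 1.33 (SE 0.14, adjusted p = 7.73e-06) depended on the handling of background, being 0.63 without background correction (adjusted p = 4.99e-06) and 0.79 with an offset of 50 (adjusted p = 2.86e-06). Hnrnpf ran the other way, at 7.55, 7.25 and 6.84 in neurons, against 7.61, 7.77, 7.76, 8.10 and 8.27 in NSCs, a difference of -0.69 (SE 0.18, adjusted p = 0.00690) with arrays that did not overlap.

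The lowest hnRNP gene was Hnrnpa2b1, whose protein carries mRNAs along neuronal and oligodendrocyte processes as well as acting in splicing. It read 10.54, 10.22 and 10.09 in neurons, against 11.36, 11.52, 11.52, 11.43 and 11.46 in NSCs. Every neuron array was lower by more than the whole range of the stem cells, and the difference was -1.17 (SE 0.11, limma adjusted p = 4.84e-06), or 2.25-fold. These values are of its brightest probe, and its other tested probe, a dim one, was at -0.42 and called lower. Hnrnpa1 and Hnrnpab, relatives of Hnrnpa2b1, did not pass, at 0.085 (95% interval -0.40 to 0.57) and 0.030 (-0.29 to 0.35). Hnrnpl, which binds CA repeats, read 11.80, 11.98 and 12.02 in neurons, against 12.54, 12.33, 12.48, 12.37 and 12.67 in NSCs, at -0.54 (adjusted p = 0.00114), while its paralog Hnrnpll was at 0.076 (-0.14 to 0.30), or 0.26 and called with median scaling (adjusted p = 0.0408). Hnrnpm read 11.95, 11.95 and 11.87 in neurons, against 11.17, 11.36, 11.08, 11.57 and 11.25 in NSCs, a rise of 0.64 (adjusted p = 0.000660) with 3 of 3 probes called higher. Hnrnpc, which binds tracts of U, read 14.41, 14.41 and 14.47 in neurons, against 14.18, 14.06, 14.02, 13.93 and 13.93 in NSCs, at 0.41 (adjusted p = 0.00299), or 0.26 with median scaling (adjusted p = 0.0436). Smaller falls were those of Hnrnpdl (-0.47, adjusted p = 0.00682) and the poly-C binding Hnrnpk (-0.37, adjusted p = 0.00698). Neither fall was called with median scaling (-0.30 and -0.18, adjusted p = 0.0531 and 0.175) or with the mean of a gene's probes (-0.26 and -0.25, adjusted p = 0.0553 and 0.0594). The other tested probes of Hnrnpdl (-0.057) and Hnrnpk (-0.14) were not called. Hnrnpul1 did not pass at -0.026.

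Recognition of the branch point and the 3′ end of the intron involves SF3A, SF3B and U2AF. Of 7 tested SF3 genes 0 rose and 3, all of SF3B, fell (42.9% called, against 64.6% of all genes), with a median of -0.16. With median scaling 2 were higher and 2 lower, with a median of -0.10. Sf3b5, a small scaffold subunit, read 10.004, 9.92 and 9.73 in neurons, against 10.40, 10.21, 10.54, 10.61 and 10.44 in NSCs, a difference of -0.55 (SE 0.12, limma adjusted p = 0.00151) with groups that did not overlap, or -0.35 with median scaling (adjusted p = 0.0313). Sf3b6, which sits at the branch point, read 5.52, 5.51 and 5.96 in neurons, against 6.18, 6.28, 5.91, 6.28 and 6.41 in NSCs. Neuron 3 lay above NSC 3, so the groups overlapped, and the difference of -0.55 (SE 0.14, adjusted p = 0.00585) was -0.28 without background correction (adjusted p = 0.00965) and was not called with the replicate number as a block (-0.46, adjusted p = 0.0637). Sf3b3, at -0.31 (adjusted p = 0.0373), was not called without NSC 1 (-0.27), NSC 3 (-0.30), NSC 5 (-0.32), Neuron 1 (-0.24) or Neuron 3 (-0.25), with adjusted p of 0.0530 to 0.145. Nor was it called with median scaling (-0.12, adjusted p = 0.444), with no filter on dim probes (adjusted p = 0.0559) or with the block (-0.34, adjusted p = 0.102). The highest values were those of Sf3b4 and Sf3a1. Neither passed, but both were called higher with median scaling, at 0.41 (adjusted p = 0.0208) for Sf3b4 and 0.34 (adjusted p = 0.0154) for Sf3a1. Sf3b4 read 5.94, 6.16 and 6.22 in neurons, against 5.93, 5.58, 6.05, 5.79 and 5.96 in NSCs, at 0.25 (95% interval -0.03 to 0.52). Sf3a1 read 10.36, 10.37 and 10.63 in neurons, against 10.35, 10.20, 10.27, 10.35 and 10.40 in NSCs, at 0.14 (-0.08 to 0.36). Sf3a3 at -0.16 and Sf3b2 at -0.13 did not pass either.

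The 2 U2AF genes among the members, U2af2 and U2af1l4, were higher in neurons, as were 35.4% of all tested genes. U2af1, the small subunit itself, was not among the members, so its level is not known here. Of the 3 probes of U2af2, 1 was tested. U2af2, the large subunit, which binds the polypyrimidine tract, read 7.48, 7.42 and 7.58 in neurons, against 6.89, 6.84, 6.88, 7.26 and 7.14 in NSCs. The groups did not overlap, and the difference was 0.49 (SE 0.12, limma adjusted p = 0.00390). U2af1l4, a relative of the small subunit, read 5.64, 5.94 and 5.69 in neurons, against 5.51, 4.54, 5.54, 4.93 and 4.50 in NSCs, where 2 of the 5 arrays were above background. All neuron arrays were above all NSC arrays, of which NSC 1 and NSC 3 came closest. Its difference of 0.75 (SE 0.24, adjusted p = 0.0193) was 0.34 without background correction (adjusted p = 0.0145) and 0.40 with an offset of 50 (adjusted p = 0.0122). It was not called without Neuron 2 (0.66, adjusted p = 0.0777) or with the replicate block (0.56, adjusted p = 0.0966).

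More genes of Sm and other snRNP proteins fell than rose. Of 8 tested genes 4 fell, 1 rose and 3 did not pass, with a median of -0.25 and no difference past 1.41-fold. Calls took 62.5% of these genes, against 64.6% of all tested genes, and falls 50%, against 29.2%. Of the 5 tested genes of the Sm ring, Snrpd2, Snrpg and Snrpd1 fell, Snrpb rose and Snrpd3 did not pass at -0.16 (95% interval -0.43 to 0.11). Snrpd2 read 11.70, 11.77 and 11.995 in neurons, against 12.35, 12.25, 12.21, 12.36 and 12.44 in NSCs, a difference of -0.50 (SE 0.10, limma adjusted p = 0.00153). Snrpg, with a single ETS match in the promoter shown, read 11.47, 11.45 and 11.38 in neurons, against 11.93, 11.77, 12.07, 11.90 and 11.92 in NSCs, a difference of -0.49 (SE 0.10, adjusted p = 0.00105). Neither gene's groups overlapped. Snrpd1 was at -0.34 (adjusted p = 0.00982), or -0.16 and not called with the mean of its 2 probes (adjusted p = 0.142). Its other probe was at 0.018 and not called. Snrpb, which encodes SmB, went against Snrpd1, Snrpd2 and Snrpg. It read 11.22, 11.18 and 11.21 in neurons, against 10.81, 11.05, 10.79, 10.87 and 10.86 in NSCs. Its rise of 0.33 (SE 0.09, adjusted p = 0.0106) was 0.21 with the mean of its probes (adjusted p = 0.0354) and was not called with the block (0.32, adjusted p = 0.0661). The dimmer Snrpb probe was at 0.083 and not called. Of the U1 proteins, Snrpa read 10.25, 10.19 and 10.21 in neurons, against 10.20, 10.15, 10.12, 10.12 and 10.18 in NSCs, close together, with a difference of 0.064 (-0.12 to 0.25). With median scaling Snrpa was called higher, at 0.28 (adjusted p = 0.0246). Snrpc was at -0.039 (-0.28 to 0.21). The U2 protein gene Snrpa1, at -0.39 (adjusted p = 0.0317), was not called without NSC 2 (-0.34), NSC 4 (-0.39), NSC 5 (-0.35), Neuron 2 (-0.41) or Neuron 3 (-0.24), with adjusted p of 0.0511 to 0.162. It was not called with median scaling (-0.16, adjusted p = 0.355), no filter (adjusted p = 0.0595) or the block (-0.34, adjusted p = 0.0938) either.

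LSM genes held the largest fall of all members. Of 11 tested 6 fell, 1 rose and 4 did not pass, with a median of -0.47, or -0.27 with median scaling. The share called was 63.6%, against 64.6% of all tested genes, and the share lower was 54.5%, against 29.2%. In the LSM ring of U6, made of Lsm2 to Lsm8, 5 of 7 genes fell and 0 rose. Lsm2 read 8.17, 8.21 and 8.12 in neurons, against 9.90, 9.34, 9.72, 9.56 and 9.96 in NSCs. The gap between the groups was larger than the whole range of the NSC arrays, and the difference of -1.53 (SE 0.14, limma adjusted p = 2.79e-06) is 2.89-fold. Lsm4 read 10.95, 11.01 and 10.96 in neurons, against 12.21, 12.13, 11.86, 12.03 and 11.87 in NSCs, at -1.05 (SE 0.11, adjusted p = 7.45e-06). Lsm5, whose promoter is shown with 2 ETS matches, read 10.26, 10.32 and 10.505 in neurons, against 11.26, 11.25, 11.19, 11.20 and 11.12 in NSCs, at -0.84 (SE 0.09, adjusted p = 1.49e-05). The 3 genes were separated without overlap on every array. Lsm3 (-0.53, adjusted p = 0.000729) and Lsm6 (-0.47, adjusted p = 0.00183) fell by less, and with median scaling were at -0.33 (adjusted p = 0.0163) and -0.27 (adjusted p = 0.0552, not called). Lsm7 and Lsm8, the remaining genes of the ring, were at 0.0054 (95% interval -0.25 to 0.26) and -0.095 (-0.34 to 0.15). Lsm8 is the subunit that sets the nuclear ring apart from the cytoplasmic ring of mRNA decay, in which Lsm1 takes its place.

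**Figure D3:**
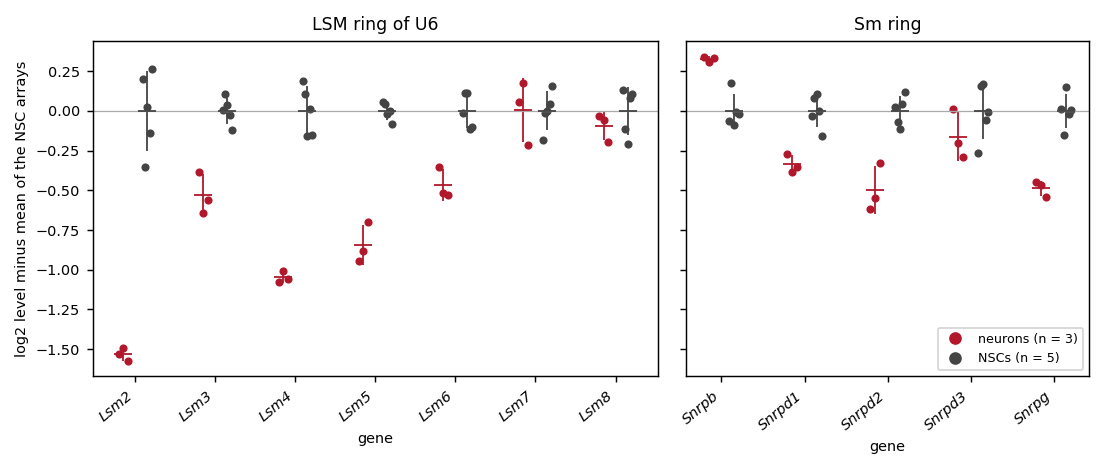
Log2 level of the LSM ring genes of U6 (left) and the tested Sm ring genes (right) on each array, minus the mean of the NSC arrays (y axis). Points are arrays, and bars are the group mean and SD for neurons (n = 3) and NSCs (n = 5). Lsm2 lies lowest at -1.53, while Lsm7, Lsm8 and Snrpd3 overlap their NSC values.

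Outside the ring, Lsm12 fell by 0.60 (limma adjusted p = 0.000340, -0.37 with median scaling) and all 3 of its tested probes were called lower. Lsm14a, a protein of cytoplasmic P-bodies that holds back translation, read 9.87, 10.17 and 10.37 in neurons, against 8.93, 9.72, 9.48, 9.80 and 9.62 in NSCs. Neuron 1 stood just above the highest NSC array, and the difference of 0.62 (SE 0.19, adjusted p = 0.0145) was not called without Neuron 3 (0.51, adjusted p = 0.0721). Lsm14b read 6.23, 6.52 and 5.71 in neurons, against 5.64, 5.52, 6.31, 5.97 and 6.63 in NSCs, with wide overlap and a difference of 0.14 (95% interval -0.42 to 0.71). Lsm10, of the U7 snRNP that processes histone mRNA, was at -0.0059 (-0.44 to 0.43).

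Of the role groups with more than 2 tested genes, PRP factors had the smallest share of calls. Of 9 tested 2 rose, 0 fell and 7 did not pass (22.2% called, against 64.6% of all tested genes), with a median of 0.18. Prpf18, a factor of the later catalytic step, read 10.16, 10.18 and 10.38 in neurons, against 9.86, 9.87, 9.81, 9.92 and 9.79 in NSCs, without overlap, at 0.40 (SE 0.09, limma adjusted p = 0.00335), or 0.60 with median scaling (adjusted p = 0.000176). Prpf40b, related to a yeast protein of the U1 snRNP, read 9.48, 9.45 and 9.53 in neurons, against 9.29, 9.20, 9.10, 9.28 and 9.07 in NSCs. Its difference of 0.30 (SE 0.09, adjusted p = 0.0162) was not called without Neuron 3 (0.28, adjusted p = 0.0539), with cyclic loess (0.23, adjusted p = 0.0544) or with the block (0.29, adjusted p = 0.0788), and was 0.50 with median scaling (adjusted p = 0.000824). At the low end, Prpf3, of the U4/U6 snRNP, read 9.97, 9.90 and 9.99 in neurons, against 10.13, 10.30, 10.12, 10.08 and 10.13 in NSCs, at -0.20 (adjusted p = 0.0762). Prpf19, a ubiquitin ligase of the activated spliceosome, read 11.41, 11.38 and 11.34 in neurons, against 11.73, 11.52, 11.42, 11.44 and 11.62 in NSCs, at -0.17 (adjusted p = 0.156). The groups of Prpf3 and Prpf19 did not overlap, although neither passed the threshold on its brightest probe. Prpf3 was called lower without background correction (-0.19, adjusted p = 0.0410), with the authors' values (-0.19, adjusted p = 0.0409) and with a trended robust variance (-0.20, adjusted p = 0.0367), and was at 0.016 with median scaling (adjusted p = 0.899). Prpf19 was called lower with the mean of its probes (-0.26, adjusted p = 0.0220). Each gene had 1 dimmer probe called lower, at -0.32 for Prpf3 (adjusted p = 0.0192) and -0.31 for Prpf19 (adjusted p = 0.0204). Prpf8, the large protein at the catalytic centre, was at 0.24 (95% interval -0.27 to 0.75), and Prpf6 at 0.19, Prpf38b at 0.18, Prpf38a at 0.15 and Prpf31, near background, at 0.0091 did not pass. Prpf38b was called higher with median scaling (0.38, adjusted p = 0.0449) and without Neuron 3 (0.34, adjusted p = 0.0430). The dimmer tested probe of Prpf38a was called higher, at 0.49, and that of Prpf8 was at -0.42 and not called.

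**Figure D4:**
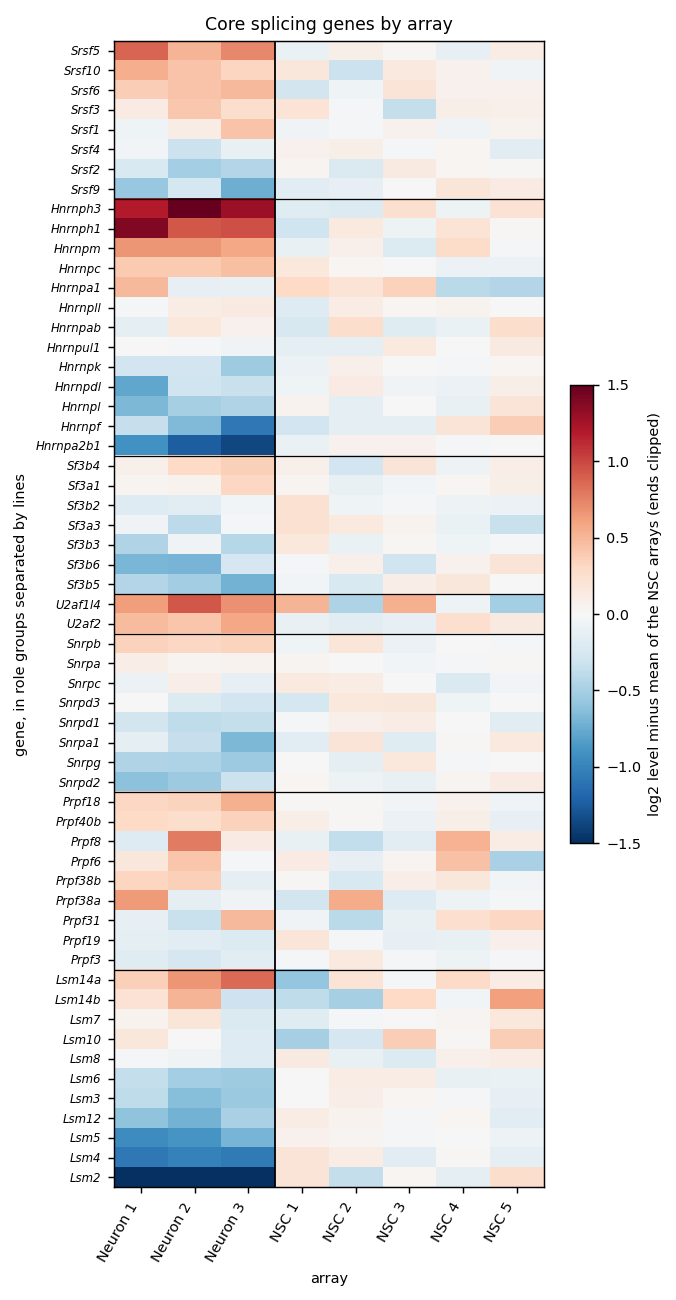
Log2 level of each tested core splicing gene (rows, by role group) on each array (columns, the 3 neuron arrays left of the 5 NSC arrays), minus the mean of the NSC arrays, with colours clipped at 1.5 in either direction. Hnrnph3 and Hnrnph1 are the strongest red rows and Lsm2 the strongest blue row in the neuron columns.

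Several members have more than 1 tested probe, which allows a test of whether probes of 1 gene changed unequally. Of 36 such pairs in 25 members 2 were called by limma (5.56%), against 15.8% of 2506 pairs over all genes, and 5 (13.9%) had an unadjusted p below 0.05, against 26.4% of all pairs. The count called was 7 without background correction (19.4%, against 26.0% of all pairs) and 5 with an offset of 50 (13.9%, against 22.9%). The largest unequal change was in Srsf10. Its dimmest probe, which the platform table assigns to another RefSeq transcript than the brightest, read 5.92, 5.79 and 5.30 in neurons, against 6.76, 6.87, 6.67, 6.40 and 6.67 in NSCs. The probe fell by 1.001 on the log2 scale (SE 0.15, adjusted p = 0.000164) while the brightest rose by 0.43, and the unequal change was -1.43 (SE 0.20, adjusted p = 0.000150). Another probe, assigned to the same transcript as the dimmest, read 7.44, 7.80 and 7.64 in neurons, against 6.72, 7.75, 7.30, 7.63 and 7.40 in NSCs, at 0.27 (adjusted p = 0.279), and did not differ from the brightest beyond error (-0.16, 95% interval -0.75 to 0.42). Srsf10 was the only member with probes called in opposite directions, as 33 of 1856 genes with more than 1 tested probe were. In Hnrnpa2b1 the probes belong to different RefSeq transcripts as well. The dimmer read 6.23, 5.93 and 6.03 in neurons, against 6.46, 6.499, 6.16, 6.69 and 6.60 in NSCs, and fell by 0.42 on the log2 scale (adjusted p = 0.0153), against a fall of 1.17 on the brighter. The unequal change was 0.75 (SE 0.17, adjusted p = 0.00792). The dimmer probe averaged 6.06 in neurons and 6.48 in NSCs, against 10.29 and 11.46 on the brighter. The offset shrinks differences of dim probes, and its part in this unequal change was not tested. Sequences of the probes were not used here, so where they lie in the transcripts is not given.

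**Figure D5:**
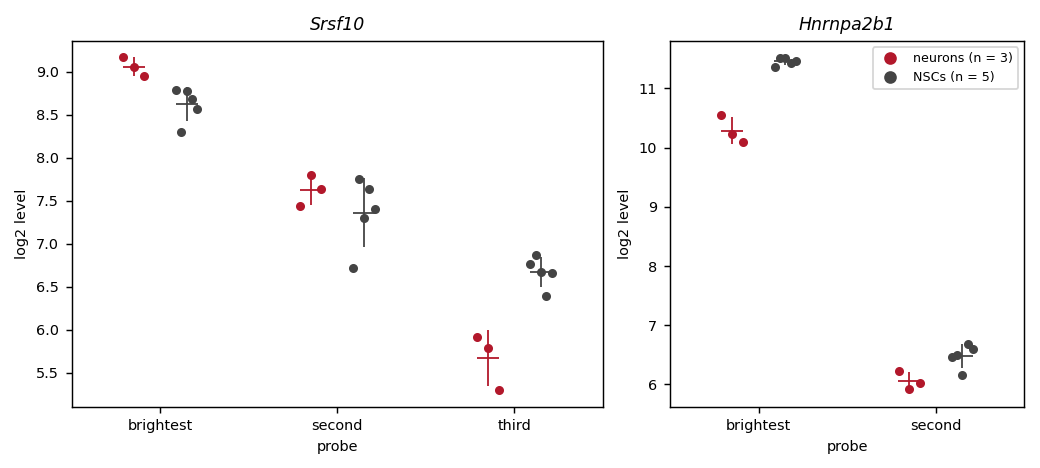
Log2 level (y axis) of each tested probe of Srsf10 (left) and Hnrnpa2b1 (right) on each array. Points are arrays, and bars are the group mean and SD for neurons (n = 3) and NSCs (n = 5). On the dimmest Srsf10 probe the difference, neuron minus NSC, is -1.001, and on the brightest it is 0.43.

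Splicing genes outside the symbol rule were grouped in 4 lists. Of 33 other spliceosome subunits tested, of 43 with a probe, 8 rose, 10 fell and 15 did not pass, with a median of -0.016. The share called was 54.5%, against 64.6% of all tested genes. Snrnp25, of the minor spliceosome, read 9.01, 8.98 and 8.91 in neurons, against 10.74, 10.63, 10.74, 10.69 and 10.76 in NSCs, at -1.74 (SE 0.09, limma adjusted p = 1.67e-08). Slu7, a factor of the later catalytic step, read 7.32, 6.90 and 6.98 in neurons, against 5.88, 6.28, 5.96, 6.28 and 5.58 in NSCs, at 1.07 (SE 0.17, adjusted p = 0.000227), or 0.65 without background correction (adjusted p = 2.77e-05). In the assembly of snRNPs, 3 of 14 tested genes rose, 3 fell and 8 did not pass (42.9% called), with a median of -0.013. Gemin6, of the SMN complex that loads Sm rings, read 8.19, 8.03 and 7.94 in neurons, against 9.40, 9.52, 9.43, 9.24 and 9.35 in NSCs, at -1.34 (SE 0.10, adjusted p = 6.75e-07). Coil, the marker protein of Cajal bodies, read 6.82, 6.61 and 6.70 in neurons, against 6.13, 5.96, 6.02, 5.57 and 5.92 in NSCs, at 0.79 (SE 0.13, adjusted p = 0.000284), or 0.45 without background correction (adjusted p = 0.000158). Neither Snrnp25, Slu7, Gemin6 nor Coil had overlapping groups.

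Among SR-like proteins, coactivators and the exon junction complex, 6 of 10 tested genes rose, 2 fell and 2 did not pass. Their median was 0.38, or 0.26 with Rbm39 at its bound, and 80% were called, against 64.6% of all tested genes. Rbm39 was detected on all 3 neuron arrays and 0 NSC arrays and was at least 1.16-fold higher (limma adjusted p = 0.000608). It read 5.33, 5.30 and 5.598 in neurons, against 4.37, 4.34, 4.55, 4.70 and 4.97 in NSCs. Luc7l2, a U1-associated protein, read 8.06, 8.23 and 7.97 in neurons, against 8.47, 8.59, 8.41, 8.56 and 8.59 in NSCs, at -0.44 (SE 0.10, adjusted p = 0.00244), and was not called with median scaling (-0.20, adjusted p = 0.125). Kinases and phosphatases of SR proteins held the largest value of the 4 lists. Of 8 tested 3 rose, 2 fell and 3 did not pass (62.5% called, against 64.6% of all tested genes), with a median of 0.094. Srpk3, an SR protein kinase best known from muscle, read 9.16, 9.76 and 9.55 in neurons, against 7.33, 6.97, 6.72, 6.38 and 6.49 in NSCs, at 2.71 (SE 0.21, adjusted p = 7.58e-07). Every neuron array was far above the stem cells. Ppm1g, a phosphatase that acts on splicing factors, read 9.29, 9.49 and 9.42 in neurons, against 10.01, 9.74, 9.80, 9.88 and 9.78 in NSCs, at -0.44 (SE 0.10, adjusted p = 0.00246), and was not called with median scaling (-0.24, adjusted p = 0.0814).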

How the data were processed

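Total RNA of 8 samples was hybridised to Illumina MouseRef-8 v2.0 bead arrays, all on 1 chip. Per the file headers, the authors deposited for each probe its average bead signal, a linear intensity, and a detection score. The deposited score is a fraction whose difference from 1 was used as the detection p-value. A second deposited table holds the authors' log2 values, which were within 0.00524 of quantile-normalized log2 signals that had no background correction. The submitters' processing notes name limma and give no version.

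Background correction with an offset of 16, quantile normalization and the log2 transform were done with neqc of limma 3.58.1 in R 4.3.3. This gives all arrays 1 distribution, and a difference is thus relative to the rest of the array, and dim genes have their differences shrunk by the offset. Probes were tested where 3 or more arrays had a detection p under 0.01 (10499 of 25697 probes). The brightest tested probe, by its mean over arrays, stood for its gene. The linear model (lmFit, eBayes) had group as its only term, with Benjamini-Hochberg adjustment over all tested probes and a threshold of 0.05. Unequal change of probes of 1 gene was tested on their within-array log2 difference over all 2506 probe pairs of 1856 genes. The procedure was tested on simulated data.

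The members and gene lists were chosen with earlier results of these data known, and the grouping of members into complexes after their values were seen. The rule for values by array took, in each of 7 role groups, the tested members with the lowest and highest difference, and the next ones where 6 or more members were tested. Other members are named with their difference. From each of 4 lists of other splicing genes it took the called gene with the largest difference in each direction, and of the probe pairs the called ones. Hnrnpm, Hnrnpl, Hnrnpc, Lsm5 and Srsf6 are given by array beyond it and were chosen after their values were seen. Same-numbered samples did not deviate together (r of -0.017, 0.014 and 0.015), so replicate numbers were not taken as pairs. The number of arrays limits the precision. The labels do not say that replicates were separate cultures, and the p-values therefore cover only the spread among these samples, possibly a technical one.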

Additional observations from a re-analysis of the deposited data

Results flagged for a closer look

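In the NSC group, 2 of the 58 tested core splicing genes had 1 array apart from the other 4, where chance gives about 1 in 20 groups. The gap to the nearest other array, as a share of the whole range, was above the critical value of 0.71 for 5 arrays. Prpf3 read 10.30 on NSC 2, where the other NSC arrays read 10.08 to 10.13 (gap 0.755 of the range). Sf3b2, a subunit of SF3B, read 12.49 on NSC 1, where the others read 12.18 to 12.25 (gap 0.773 of the range). Neither gene was called between neurons and NSCs, and neither was called with that array left out.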

How the results depend on the processing

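Of the 33 called core splicing genes, 21 kept their call in every alternative setting in which they were tested (19 settings, or 18 for Hnrnph3, which the filter for detection on all 8 arrays removed), 12 lost it in at least 1 (6 of them when 1 array was left out), and 1, Srsf10, changed sign. Of the 25 genes that were not called, 8 were called in at least 1 setting and 14 changed sign. The member median of -0.016 was 0.078 with median scaling, -0.080 with cyclic loess, -0.094 with the mean of a gene's tested probes, and -0.098 to -0.0047 with 1 array left out. Called probe pairs numbered 2, against 7 without background correction and 5 with an offset of 50. The cause of these shifts was not tested. Signs turned with median scaling for Hnrnpab (-0.043), Hnrnpul1 (0.11), Lsm10 (0.23), Lsm8 (0.041), Prpf3 (0.016), Sf3a3 (0.016), Snrpc (0.18) and Srsf4 (0.020). They turned with cyclic loess for Hnrnpab (-0.024), Lsm7 (-0.046) and Prpf31 (-0.039), with array weights for Prpf31 (-0.0053), and with the mean of the tested probes for Prpf8 (-0.093) and Srsf10 (-0.10). With 1 array left out, the ranges that crossed 0 were -0.12 to 0.19 for Hnrnpa1, -0.033 to 0.11 for Hnrnpab, -0.061 to 0.0093 for Hnrnpul1, -0.13 to 0.091 for Lsm10, -0.042 to 0.36 for Lsm14b, -0.081 to 0.12 for Lsm7, -0.23 to 0.18 for Prpf31, -0.10 to 0.30 for Prpf38a, -0.035 to 0.45 for Prpf8 and -0.11 to 0.0052 for Snrpc. With the replicate number as a block, 10 members were called higher and 17 lower, 27 of the 33 calls were kept, the member median was -0.0073, and signs turned for Hnrnpa1 (-0.20), Hnrnpul1 (0.018) and Lsm10 (0.12). The numbers did not pair the samples, and no neuron sample correlated best with the NSC sample of its own number. Hnrnph3 and U2af1l4 were above background on 2 of 5 NSC arrays, and the size of their difference moved with the handling of background.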
